A study of Mus musculus with 9 samples.

Results

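The 72 genes described here carry placeholder symbols made of Gm and a number, and they were the Gm-numbered genes above a set level in mouse liver. They were taken from the deposited count tables as every symbol made of Gm and digits, with Gm129 and Gm15441 set aside, whose mean reached at least 2 CPM (the reads of a gene scaled to a common total of gene reads) in at least 1 diet group. The tables listed 1134 such symbols among 23337 genes, so 6.3% of them became members, against 11102 of 22201 other genes (50%) that reached the same level. Of the 1134 symbols, 693 had no read in any library. The members were selected on measured levels, and the levels themselves are therefore a description.

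The samples were whole livers of wild-type (WT) mice. Normal diet (ND) was fed to 3 mice, a high-fat diet of 60% (HFD) to 3, and that diet plus 0.25% hyodeoxycholic acid (HFD_HDCA), a secondary bile acid, to 3 more. Diets ran for 12 weeks from 8 weeks of age and livers were dissected in the fed state. The fat content of the ND, the sex of the mice and the caging were not given in the labels, and no other genotype or agent was used. The series concerns hepatic steatosis, GLP-1, invariant NKT cells and PPARα. The labels do not tie the libraries to cages or days, so p-values measure the spread between these 9 samples, which may be partly technical. In whole tissue, fewer cells of a type and less RNA per cell cannot be told apart.

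A Gm number is given to a mouse locus when a gene is predicted there from sequence or transcript evidence and nobody has yet named it. Such a locus can turn out to be a protein-coding gene that later gets a name, a long non-coding RNA (lncRNA), which is transcribed without a long reading frame, or a pseudogene, a decayed copy of a working gene. Some lie inside or next to well-known genes or have near-identical copies, so short reads can be hard to assign to them. Current names and gene classes were taken from RefSeq on the GRCm38.p6 assembly.

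By RefSeq, 42 members were protein-coding, 24 were lncRNA genes, 5 were transcribed pseudogenes and 1, Gm17066, had no match. For 30 members RefSeq now uses another symbol, among them Angptl8 for Gm6484, Usf3 for Gm608, Myrf for Gm98, Zfp970 for Gm14420, Cep85l for Gm9766, Mthfsl for Gm2382, Tarbp1 for Gm17296 and Wfdc17 for Gm11428. The match of Gm2083 to Mup13, a major urinary protein, is uncertain, because the tables hold Mup13 as a separate row, Gm2083 was listed at 6 loci and its locus did not overlap the RefSeq gene. Members lay on 18 chromosomes, with 8 on chromosome 2 and 6 on chromosome 9.

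The test below was passed in more than 1 comparison by 7 members. Of these, Gm4956 and Gm3219 had no promoter window, and the window of Gm14403 is not shown. Promoter sequences of the other 4 are given here. They run 5′ to 3′ on the strand of the gene, from 250 bases before the start to 50 bases after it, and capitals mark the 50 bases after the RefSeq start. They come from RefSeq on GRCm38.p6. Gm6484 and Gm19619 were high on HFD and low again on HFD_HDCA, while Gm4952 and Gm16157 were highest on HFD_HDCA. The windows are chr9:21835260-21835559 on the plus strand for Gm6484, chr5:91283027-91283326 on the minus strand for Gm19619, chr19:12599734-12600033 on the plus strand for Gm4952 and chr7:68276545-68276844 on the minus strand for Gm16157. RefSeq gives 2 windows each for Gm4952 and Gm16157, and the more upstream is shown. The last 25 bases of the windows of Gm6484 and Gm19619 were found in the GENCODE transcript compared. Those of the windows shown for Gm4952 and Gm16157 were not, while those of their other windows were.
Gm6484 (Angptl8): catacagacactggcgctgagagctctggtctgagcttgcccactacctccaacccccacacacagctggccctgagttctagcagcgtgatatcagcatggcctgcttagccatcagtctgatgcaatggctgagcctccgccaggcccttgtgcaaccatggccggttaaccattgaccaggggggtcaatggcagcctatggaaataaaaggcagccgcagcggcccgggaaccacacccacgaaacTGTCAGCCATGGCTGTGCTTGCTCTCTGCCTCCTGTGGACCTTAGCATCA
Gm19619: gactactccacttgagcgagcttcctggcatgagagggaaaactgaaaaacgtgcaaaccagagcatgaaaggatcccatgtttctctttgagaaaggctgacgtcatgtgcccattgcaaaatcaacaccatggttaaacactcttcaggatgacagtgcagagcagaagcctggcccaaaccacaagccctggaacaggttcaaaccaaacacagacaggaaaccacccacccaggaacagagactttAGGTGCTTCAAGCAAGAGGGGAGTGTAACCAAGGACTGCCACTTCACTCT
Gm4952: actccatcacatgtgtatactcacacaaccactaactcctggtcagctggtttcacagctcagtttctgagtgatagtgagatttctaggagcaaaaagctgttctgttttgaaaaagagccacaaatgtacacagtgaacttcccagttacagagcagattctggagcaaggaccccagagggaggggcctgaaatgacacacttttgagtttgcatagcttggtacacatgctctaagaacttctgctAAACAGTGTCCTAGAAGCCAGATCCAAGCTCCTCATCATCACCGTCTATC
Gm16157: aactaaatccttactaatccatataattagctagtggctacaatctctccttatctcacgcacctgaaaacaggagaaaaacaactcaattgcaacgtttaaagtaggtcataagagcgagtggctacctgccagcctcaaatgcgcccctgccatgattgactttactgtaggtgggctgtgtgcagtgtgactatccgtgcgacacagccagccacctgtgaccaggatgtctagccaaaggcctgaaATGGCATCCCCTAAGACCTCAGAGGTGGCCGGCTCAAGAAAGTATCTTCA

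Of the 72 members, 55 had such windows, 65 in all, which were searched on both strands for short letter patterns. The E-box CACGTG, a motif that several families of transcription factors can bind, was in 6 of the 65 member windows (9.23%) and in 7.15% of all 32851 windows. Among members that passed the test below it was in the window of Gm15408, 123 bases before the start. The nuclear receptor motif AGGTCA was in 12 member windows (18.5%) against 16.3% of all windows, among them those of Gm14420 and Gm16157. The direct repeat AGGTCANAGGTCA, the spacing used by PPARα with its partner RXR, was in 0 member windows and in 0.0396% of all windows. TCACCCCAC, a core of sites for sterol-responsive factors, was in 0 member windows and in 0.551% of all. These are matches of letters only.

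Levels spread over more than 2 orders of magnitude. The highest group mean was between 2 and 10 CPM for 44 members, between 10 and 50 CPM for 21 and at least 50 CPM for 7. The 4 most abundant, Gm4788, Gm4952, Gm4951 and Gm10768, held 54.6% of all member reads. Summed over members, levels were 1585 ± 49.5 CPM on ND, 1634 ± 78.8 on HFD and 1679 ± 132 on HFD_HDCA (SD, n = 3 each). The coefficient of variation within a diet group had a median of 18.3% over members and groups, from 0.6 to 79.7%. Of the members, 57 reached 2 CPM in all 3 groups, 8 in 2 groups and 7 in 1. Just inside the threshold lay Gm11974 with a highest group mean of 2.02 CPM, Gm10516 with 2.03 and Gm9992 with 2.04, and just outside lay Gm9958 with 1.90, Gm14057 with 1.76 and Gm16793 with 1.66.

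**Figure D1:**
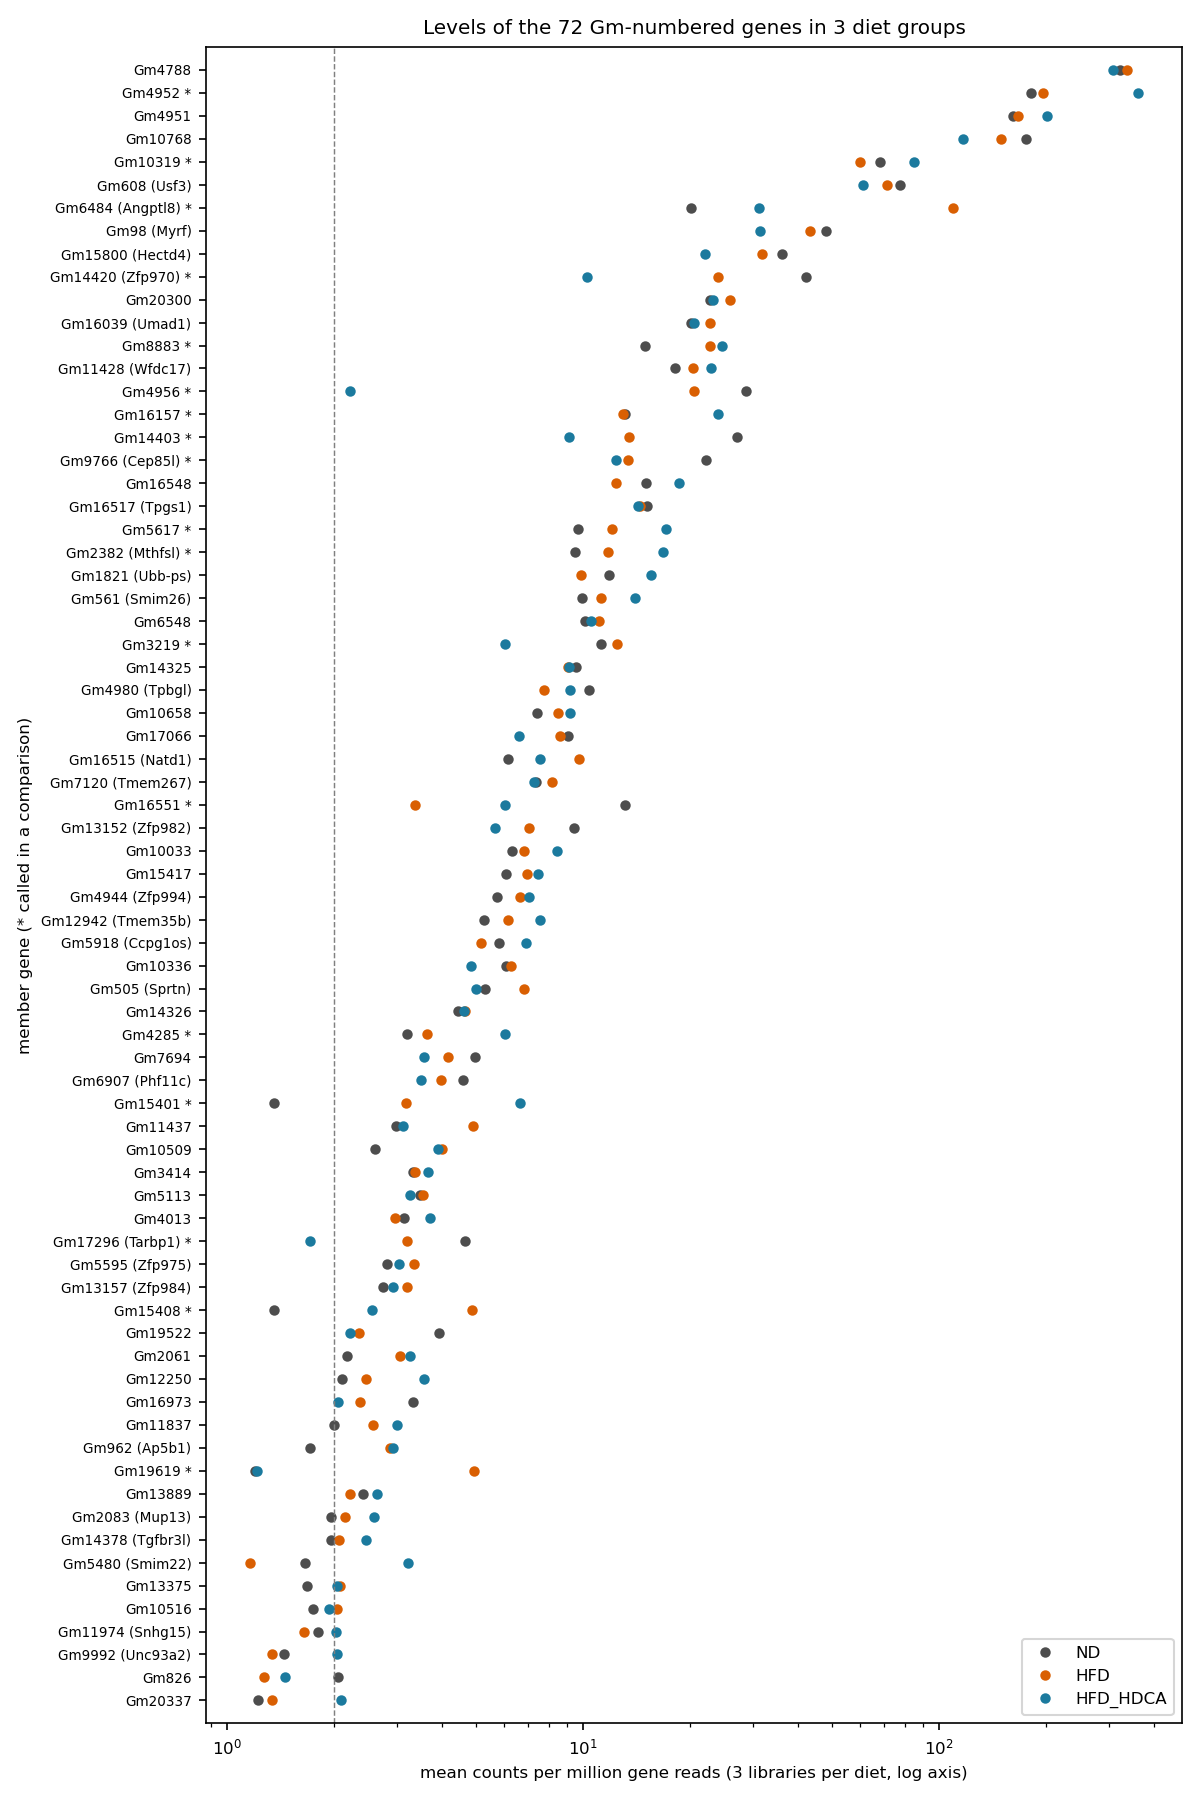
Mean CPM on a log axis for each of the 72 members, 1 point per diet group (mean of 3 libraries), with the threshold of 2 CPM as a dashed line and an asterisk for members called in a comparison. The points of Gm4956 span 2.21 to 28.6 CPM and those of Gm6484 20.1 to 109.6 CPM, while the 3 points of Gm4788, at 307 to 337 CPM, nearly coincide.

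The 9 libraries held 16994353 to 20509203 reads on genes, so 3 reads, the limit that a count of 0 allows, corresponded to 0.146 to 0.177 CPM (counting error only). Reads that aligned to several places and were not counted made up 16.6 to 19.4% of the ND files, 13.3 to 14% of the HFD files and 14.5 to 16.0% of the HFD_HDCA files, and their part in the results on members with close copies was not tested. Some libraries differed from others of their diet. HFD 1 had summed clock gene levels of 251.5 CPM against 86.8 to 155 in the other 8, and these genes did not all move in the same direction. Dbp read 91.56 CPM in HFD 1 against 0.76 to 14.95 in the others, while Arntl read 5.03 against 17.78 to 43.6. Per2 and Per3 were also highest in HFD 1, Npas2 was lowest, and Nr1d1 lay within the range of the others. HFD_HDCA 1 had 5 acute-phase genes at 5494 CPM against 44.1 to 152. All 6 hepatocyte markers were present, at 86709 to 124888 CPM in sum, and macrophage markers summed to 86.5 CPM in HFD 2 against 230 to 592 in the others.

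All 72 members were expressed strongly enough to be tested with edgeR's quasi-likelihood test in 1 model of all 9 libraries, and p-values were adjusted by Benjamini-Hochberg over all 12587 genes. A member is called changed where this adjusted p was under 0.05, log2 fold changes are given ± SE, and a value of 1 on the log2 scale means that the level was 2 times as high. Between HFD and ND, 3 members rose and 2 fell, 6.94% of the members beside 0.953% of all genes tested. Between HFD_HDCA and HFD, 3 rose and 4 fell, 9.72% beside 3.4%. Between HFD_HDCA and ND, 7 rose and 6 fell, 18.1% beside 6.47%. Over all 119 Gm-numbered genes tested, members included, the calls were the same 5, 7 and 13. Their shares were then 4.2, 5.88 and 10.9%. The 3 comparisons share libraries in pairs, so these counts are not independent of one another. Over the 9 fits that each left out 1 library the counts ran from 0 to 6, from 1 to 8 and from 4 to 15. Without ND 1 they were 0, 3 and 4, without ND 2 they were 1, 4 and 5, and without ND 3 they were 1, 4 and 6. Without HFD 2 or HFD 3 the first fell to 1 and the second to 3 or 2, and without HFD_HDCA 2 the first was 3. Without HFD_HDCA 1 the second was 4, and without HFD_HDCA 3 the last 2 were 1 and 5.

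In all, 18 members were called in at least 1 comparison and 7 in more than 1. A member that reached 2 CPM in only 1 or 2 groups had to differ between groups. The shares were therefore also taken over the 57 members at 2 CPM or more in all 3 groups. Of these 57, 3 (5.26%) were called between HFD and ND, 6 (10.5%) between HFD_HDCA and HFD, and 11 (19.3%) between HFD_HDCA and ND. Among the 10493 other genes at that level in all groups the shares were 0.848, 3.57 and 6.75%. Genes with Rik symbols, another set of placeholder names, were taken at 2 CPM or more in at least 1 group. Of these 597, 0.838, 3.35 and 6.87% were called. The median log2 fold change over members was 0.06, 0.09 and 0.23 in the 3 comparisons in the same order, beside 0.02, -0.00 and 0.03 over all genes.

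**Figure D2:**
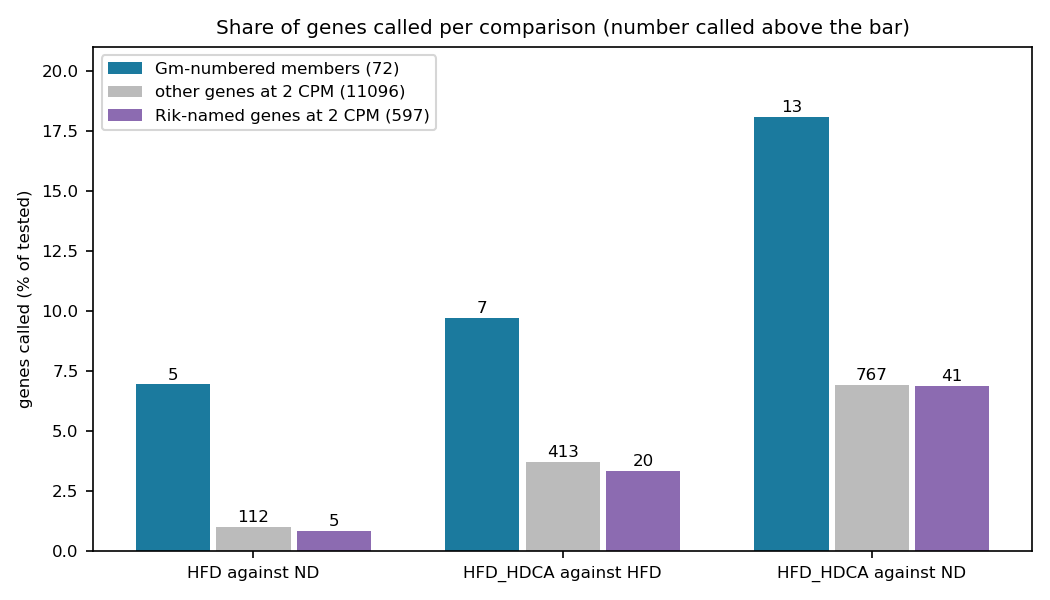
Percentage of tested genes called at an adjusted p under 0.05 in each comparison, for the 72 members, 11096 other genes and 597 Rik-named genes at 2 CPM or more in a group, with the number called above each bar. The member bars stand at 6.94, 9.72 and 18.1% and rest on 5, 7 and 13 genes.

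By gene class, 7 of 42 protein-coding members, 8 of 24 lncRNA genes and 3 of 5 transcribed pseudogenes were called in some comparison. Of the 30 members that RefSeq has since renamed 5 were called, and of the 42 that kept their Gm symbol 13 were. Beside the 18 of 72 members, 8.09% of all 12587 genes tested and 8.66% of the other genes at 2 CPM or more in a group were called in at least 1 comparison. Differences between these classes were not tested.

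**Figure D3:**
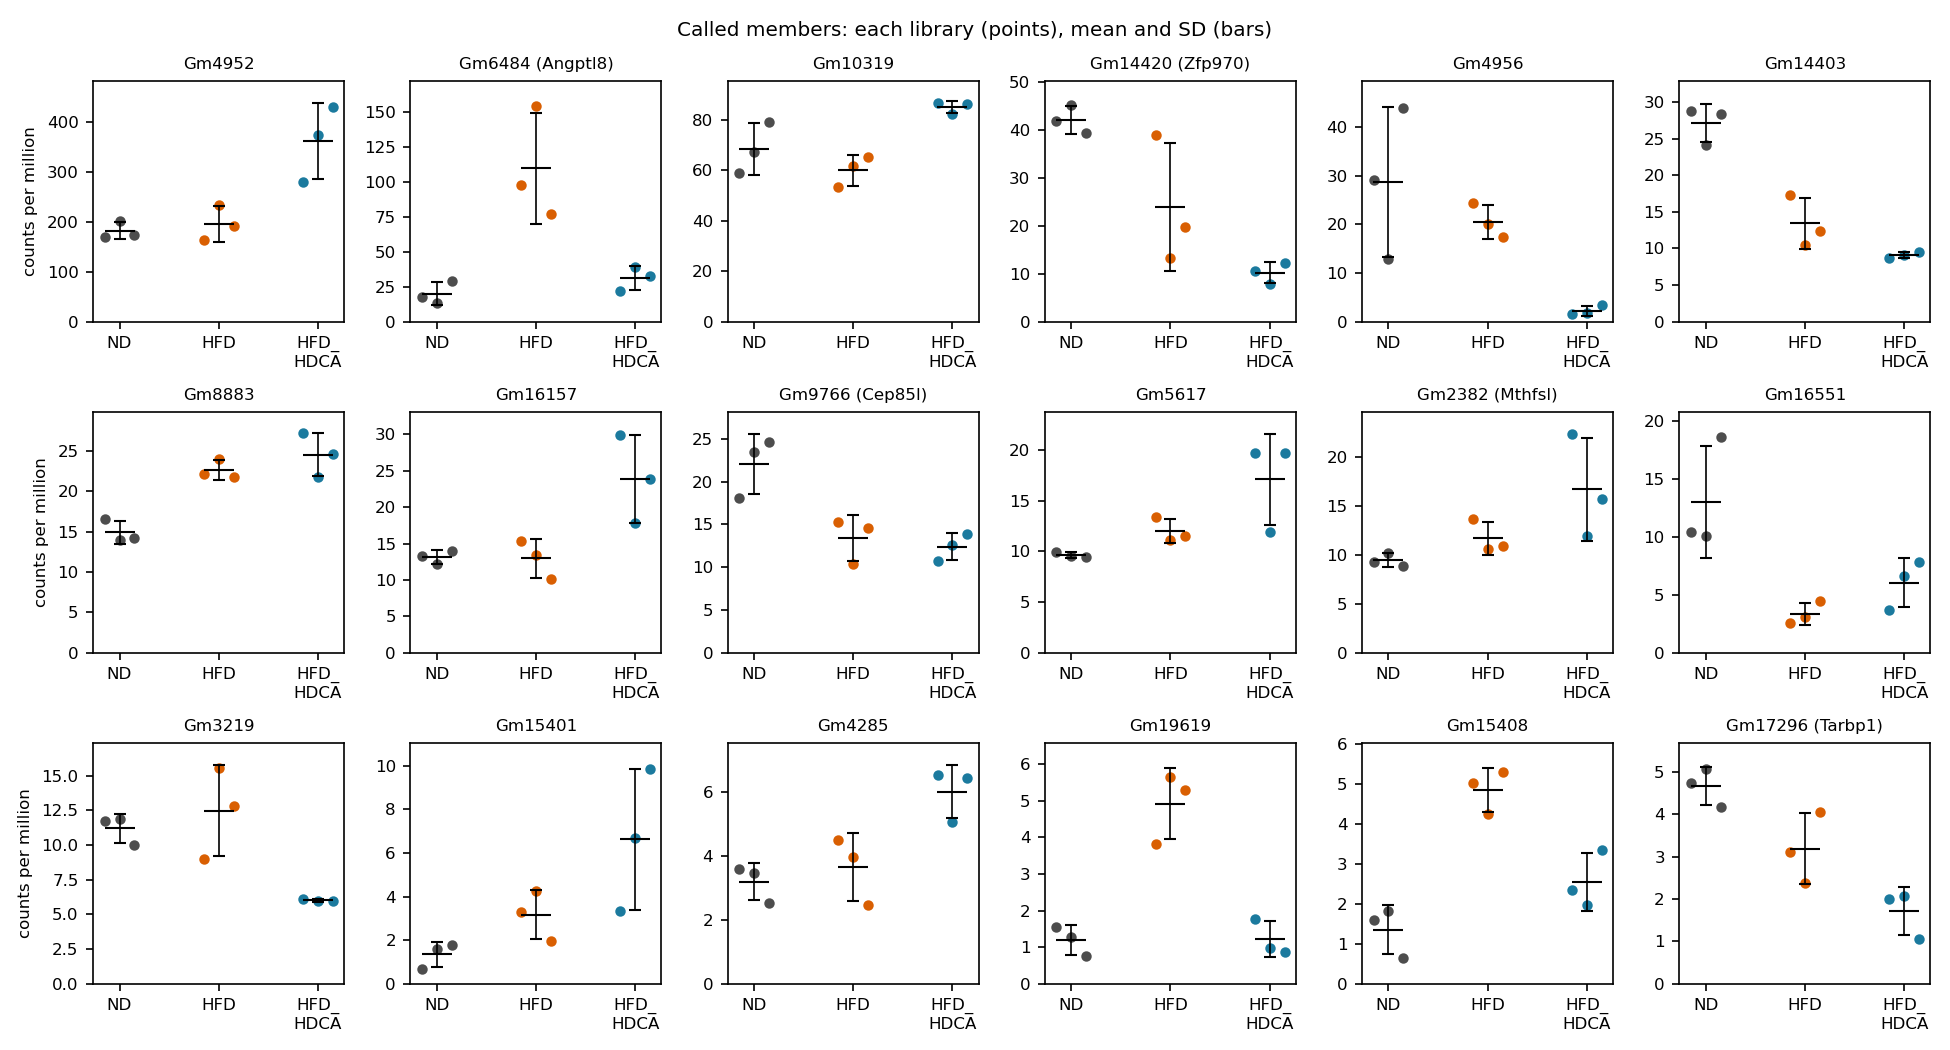
CPM (axis from 0) in each of the 9 libraries for the 18 called members, with the mean and SD of 3 libraries per diet in black. Gm6484 and Gm19619 have HFD libraries above all 6 others, and Gm4956 and Gm3219 have HFD_HDCA libraries below all 6 others.

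Among protein-coding members the widest rise on HFD was in Gm6484, now Angptl8, a hormone that liver and fat secrete after feeding and that holds back lipoprotein lipase. It read 17.7, 13.4 and 29.2 CPM in the ND livers, 97.6, 154 and 77.3 in the HFD livers and 22.1, 39.3 and 32.3 in the HFD_HDCA livers. Each HFD liver was above all 6 others, and the ND and HFD_HDCA livers overlapped. By mean CPM, HFD stood 5.45-fold above ND. The edgeR log2 fold change was 2.47 ± 0.37 (edgeR adjusted p = 0.0232), and HFD_HDCA stood at -1.75 ± 0.36 against HFD (adjusted p = 0.0388). HFD_HDCA against ND was 0.71 ± 0.36 (edgeR adjusted p = 0.242). Without ND 1 or ND 2 the first call was lost, with edgeR adjusted p of 0.0758 to 0.101, and without ND 1, HFD 2, HFD_HDCA 1 or HFD_HDCA 3 so was the second, at 0.0688 to 0.118. With no filter on low counts the adjusted p were 0.0528 and 0.0704, with only the 6 libraries compared 0.0569 and 0.0521, and with HFD 1 and HFD_HDCA 1 both left out 0.0382 and 0.0978.

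Gm6484 occupies chr9:21835510-21837347 on the plus strand and lies inside Dock6, which is on the opposite strand and shares no exon bases with it. Dock6, an activator of small GTPases, stood at 24.9, 20.1 and 24.7 CPM on ND, 23.1, 24 and 30.6 on HFD and 8.74, 14.3 and 13 on HFD_HDCA. All 3 HFD_HDCA livers were below the other 6. Dock6 fell on HFD_HDCA against HFD, at -1.03 (edgeR adjusted p = 0.0147), and its HFD against ND value was 0.16 (adjusted p = 0.79). Kank2, the next nearest gene, also fell on HFD_HDCA against HFD, at -0.92 (edgeR adjusted p = 0.00825). The reads of Gm6484 per 100 Dock6 reads were 66.8 to 118 in the ND livers, 423, 642 and 252 on HFD and 248 to 275 on HFD_HDCA. By this ratio HFD 3 lay within the HFD_HDCA range, and HFD 1 and HFD 2 lay above it. The lower Dock6 level on HFD_HDCA raises the ratio there, and any tie between the levels of these genes was not tested.

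Gm4952 (chr19:12599984-12627616) was the most abundant member with a change. It lies 5692 bases from Glyat, the mitochondrial enzyme that joins acyl groups to glycine, and has no copy of at least 90% identity over 100 bases in the GENCODE transcripts. It read 170, 201 and 174 CPM on ND, 163, 233 and 191 on HFD and 280, 373 and 430 on HFD_HDCA. Each HFD_HDCA liver was above all 6 others, and ND and HFD overlapped. It rose by 0.95 ± 0.19 log2 units against HFD (edgeR adjusted p = 0.026) and by 1.07 ± 0.19 against ND (adjusted p = 0.0108). The first call was lost without HFD 3 or HFD_HDCA 3 (edgeR adjusted p of 0.0874 to 0.0932) and with only those 6 libraries in the model (0.0833), and the second without ND 1 (0.0636). Glyat itself read 257 to 320 CPM on HFD and 309 to 403 on HFD_HDCA, with a log2 fold change of 0.41 (edgeR adjusted p = 0.132). Keg1, another glycine N-acyltransferase, fell on HFD against ND, at -0.98 ± 0.15 (edgeR adjusted p = 0.0198), and on HFD_HDCA against ND, at -0.81 ± 0.15 (adjusted p = 0.015). Of the 2 relatives tested, 0 rose in any of the 3 comparisons.

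The zinc finger members lay in part in 1 cluster on chromosome 2, where Gm14420, now Zfp970 (chr2:177464742-177479194), and Gm14403 (chr2:177498226-177512311) stand 19032 bases apart. Zinc finger genes of this kind encode DNA-binding proteins, many of which repress transposable elements. Gm14403 is lncRNA in RefSeq and protein-coding in GENCODE. It read 28.8, 24.1 and 28.4 CPM on ND, 17.3, 10.5 and 12.4 on HFD and 8.74, 9.16 and 9.496 on HFD_HDCA. None of the 3 groups overlapped another. It fell on HFD against ND, at -1.02 ± 0.15 (edgeR adjusted p = 0.0162), and on HFD_HDCA against ND, at -1.48 ± 0.15 (adjusted p = 0.00124), and HFD_HDCA against HFD was -0.46 ± 0.15 (adjusted p = 0.124). The HFD_HDCA against ND call stood in 9 of 9 fits that each left out 1 library, with a highest edgeR adjusted p of 0.0078. The HFD against ND call was lost without ND 1, ND 3, HFD 2 or HFD 3, at 0.051 to 0.0677, and in limma on log2(FPKM + 0.1) at 0.0623.

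Its neighbour Gm14420 read 41.9, 45.2 and 39.4 CPM on ND, 39.0, 13.3 and 19.7 on HFD and 10.6, 7.84 and 12.3 on HFD_HDCA. HFD 1, the library that stood apart in clock genes, read close to the ND livers and far above HFD 2 and HFD 3. The call was in HFD_HDCA against ND, at -1.95 ± 0.33 (edgeR adjusted p = 0.0125), and it was lost without ND 1 (0.0509). HFD against ND was -0.84 ± 0.32 (edgeR adjusted p = 0.345). Close copies in 42 other genes cover 99.9% of the Gm14420 transcript, and those in 46 other genes cover 99.8% of that of Gm14403. The best matches were 91.6% identical to Zfp966 over 1574 bases for Gm14420 and 91.5% identical to Gm14399 over 1207 bases for Gm14403. Part of the reads of both could have been dropped or assigned to a copy, so their reads are uncertain in origin. The other zinc finger members with current Zfp names were Gm13152 (Zfp982), Gm4944 (Zfp994), Gm5595 (Zfp975) and Gm13157 (Zfp984), and their log2 fold changes ran from -0.66 to 0.39, with 0 of 4 called in any comparison. The members Gm14325 (chr2:177828991-177840318) and Gm14326 (chr2:177942611-177957289) lie farther along the same stretch and were not called in any comparison either. Gm14325 stood at 0.02 ± 0.28 log2 units in HFD_HDCA against ND (edgeR adjusted p = 0.97). Gm14326 stood at 0.14 ± 0.26 there (edgeR adjusted p = 0.768). Their transcripts have close copies in 41 and 42 other genes, so their reads are uncertain in origin too.

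Further protein-coding members were called in HFD_HDCA against ND only among the 3 comparisons, and the differences between comparisons were not tested. Gm17296, now Tarbp1 (chr8:126426652-126475065), a tRNA methyltransferase, read 4.75, 5.07 and 4.18 CPM on ND, 3.12, 2.39 and 4.06 on HFD and 2.004, 2.08 and 1.06 on HFD_HDCA. None of its 3 groups overlapped another, and it fell against ND by 1.35 ± 0.29 log2 units (edgeR adjusted p = 0.023). Gm17296 reached 2 CPM on ND and HFD only, so some difference from HFD_HDCA was built into its choice. The call was lost without ND 1, ND 2, ND 3 or HFD_HDCA 3, at edgeR adjusted p of 0.0561 to 0.09, and stood at 0.056 in limma on log2(FPKM + 0.1). Its exons share 105 bases with Coa6 on the opposite strand.

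Gm9766, now Cep85l (chr10:53278081-53379851), a centrosomal protein gene, read 18.0, 23.5 and 24.7 CPM on ND, 15.3, 10.3 and 14.6 on HFD and 10.7, 12.6 and 13.8 on HFD_HDCA. Both high-fat groups were below all ND livers, and they overlapped each other. HFD_HDCA against ND was -0.75 ± 0.16 (edgeR adjusted p = 0.025), and HFD against ND, at -0.73 ± 0.16, missed the threshold (adjusted p = 0.0759). The call was lost without ND 2, ND 3, HFD_HDCA 1 or HFD_HDCA 3, at edgeR adjusted p of 0.0566 to 0.0921, and stood at 0.0528 in limma on log2(FPKM + 0.1).

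Gm2382, now Mthfsl (chr9:88688605-88719798), resembles Mthfs, an enzyme of folate metabolism, with 98.9% identity over 527 bases. It read 9.24, 10.2 and 8.89 CPM on ND, 13.6, 10.6 and 10.9 on HFD and 22.4, 12.0 and 15.8 on HFD_HDCA. All HFD_HDCA and all HFD livers were above the ND livers. It rose by 0.92 ± 0.22 against ND (edgeR adjusted p = 0.0367), and the call was lost without any of the 3 ND livers, HFD_HDCA 1 or HFD_HDCA 3, at 0.0658 to 0.139.

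Gm5617 (chr9:48495345-48495972) lies 15 bases from Rbm7, an RNA-binding protein gene on the opposite strand. It read 9.98, 9.53 and 9.42 CPM on ND, 13.4, 11.2 and 11.5 on HFD and 19.7, 11.9 and 19.8 on HFD_HDCA, so HFD_HDCA 2 lay among the HFD livers. It rose by 0.92 ± 0.19 against ND (edgeR adjusted p = 0.022). The call was lost without any ND liver, HFD_HDCA 1 or HFD_HDCA 3, at edgeR adjusted p of 0.0567 to 0.0898. Rbm7 read 45.2 to 48.5 CPM on ND and 48.4 to 62.2 on HFD_HDCA, a log2 fold change of 0.36 (edgeR adjusted p = 0.128).

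The pseudogene Gm4956 (chr1:21285246-21298312, minus strand) had the widest change of any member. It read 29.1, 12.9 and 43.8 CPM on ND, 24.3, 20.0 and 17.3 on HFD, and 1.503, 1.73 and 3.40 on HFD_HDCA. All 3 HFD_HDCA livers were far below the other 6, while ND and HFD overlapped and the ND livers differed widely. By mean CPM, HFD was 9.29-fold above HFD_HDCA and ND 13-fold. The edgeR log2 fold changes of HFD_HDCA were -3.13 ± 0.47 against HFD (edgeR adjusted p = 0.014) and -3.61 ± 0.48 against ND (adjusted p = 0.00521). Both calls stood in 9 of 9 fits without 1 library, with highest edgeR adjusted p of 0.0481 and 0.025, and with HFD 1 and HFD_HDCA 1 both left out they were 0.0672 and 0.0353.

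Gm4956 lies 19687 bases from Gsta3, which encodes a glutathione S-transferase, an enzyme that attaches glutathione to reactive compounds. Its transcript had no copy of at least 90% identity in GENCODE. Gsta3 read 2069, 2506 and 2116 CPM on HFD and 1568, 1429 and 1531 on HFD_HDCA, with groups that did not overlap and a log2 fold change of -0.48 ± 0.15 that missed the threshold (edgeR adjusted p = 0.0953). Of 4 alpha-class genes tested, 0 were called in the first 2 comparisons, and 2 fell in HFD_HDCA against ND, where 2.82% of all genes fell. Gsta2 fell by 3.28 ± 0.53 log2 units (edgeR adjusted p = 0.012), from 76.8, 40.9 and 37.9 CPM to 4.95, 5.59 and 4.51, and its HFD livers read 24.6, 12.7 and 5.24. Gsta4 fell by 1.49 ± 0.25 (edgeR adjusted p = 0.0107), from 112, 91.2 and 81.7 CPM to 34.7, 29.2 and 31.4.

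Gm10319 (chr6:122136628-122150958) is a pseudogene among the murinoglobulin genes, which encode plasma protease inhibitors. It read 58.7, 67.0 and 79.1 CPM on ND, 53.2, 61.4 and 65.1 on HFD and 86.4, 82.1 and 86.3 on HFD_HDCA. The HFD_HDCA livers were above all others. It rose against HFD by 0.58 ± 0.14 log2 units (edgeR adjusted p = 0.0488), while the neighbour Mug2 fell by 1.08 (adjusted p = 0.00341), from 1041, 950 and 980 CPM to 394, 518 and 418. The pseudogene's transcript is 97.6% identical to Mug2 over 493 bases. The call of Gm10319 was lost in 8 of 9 fits without 1 library, all but that without HFD_HDCA 2, at edgeR adjusted p of 0.052 to 0.13, with only the 6 libraries compared at 0.101, and with HFD 1 and HFD_HDCA 1 both left out at 0.0737. In limma on log2(FPKM + 0.1) the log2 fold change was 0.25 (adjusted p = 0.259).

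Gm3219 (chr14:34345055-34345658) begins 22 bases from the end of Glud1, the glutamate dehydrogenase gene, on the same strand. It read 11.7, 11.8 and 10.003 CPM on ND, 9.02, 15.6 and 12.8 on HFD and 6.12, 5.94 and 5.98 on HFD_HDCA. The 3 HFD_HDCA livers were close together and below the other 6. It fell against HFD by 0.98 ± 0.21 log2 units (edgeR adjusted p = 0.0367) and against ND by 0.81 ± 0.21, at an adjusted p that rounds to 0.05 and lay just under it. Glud1 stood at -0.60 (edgeR adjusted p = 0.0723) and -0.35 (adjusted p = 0.201) in the same comparisons. Gm3219 had 0.873 to 0.983 reads per 100 Glud1 reads on ND, 0.759 to 0.938 on HFD and 0.651 to 0.702 on HFD_HDCA, with the HFD_HDCA livers lowest, and the part of Glud1 in the fall was not tested. The calls were lost in 8 and 7 of 9 fits without 1 library, all but those without HFD 1 for the first and without HFD 1 or HFD 2 for the second, at edgeR adjusted p of 0.052 to 0.162. The first was also lost with only the 6 libraries compared (edgeR adjusted p = 0.0981), and the second under upper-quartile factors (0.0576) and in limma on log2(FPKM + 0.1) (0.0581). The GENCODE transcript under this symbol matches Bcl7c over all its 303 bases, which adds to the doubt on where its reads came from.

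**Figure D4:**
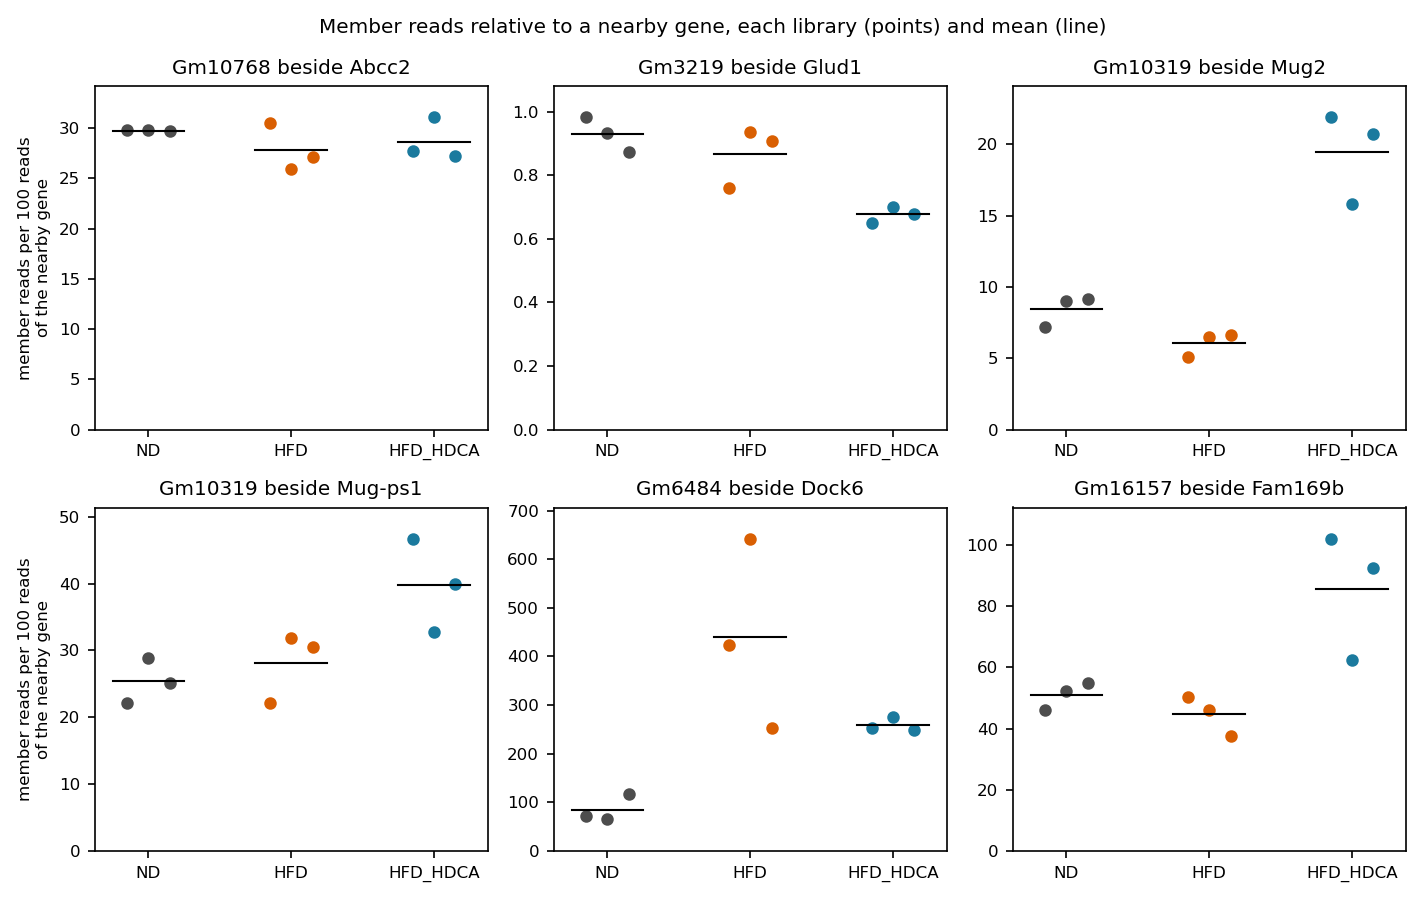
Reads of a member per 100 reads of a nearby gene (axis from 0) in each of the 9 libraries, with the group mean as a line. Gm10768 keeps to 25.9 to 31.1 reads per 100 of Abcc2 in all libraries, while Gm10319 has 15.8 to 21.9 per 100 of Mug2 on HFD_HDCA against 5.11 to 9.18 elsewhere.

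Among the lncRNA members, Gm19619 (chr5:91257571-91283076, minus strand) followed the order of Gm6484. It read 1.55, 1.27 and 0.765 CPM on ND, 3.82, 5.66 and 5.29 on HFD and 1.78, 0.980 and 0.879 on HFD_HDCA. The HFD livers were above all 6 others, and ND and HFD_HDCA overlapped. It reached 2 CPM in the HFD group only, so some difference was built into its choice. The log2 fold changes were 2.04 ± 0.36 for HFD against ND (edgeR adjusted p = 0.0255) and -1.93 ± 0.36 for HFD_HDCA against HFD (adjusted p = 0.0196). Without ND 1, ND 2, ND 3, HFD 2 or HFD 3 the first was lost, at edgeR adjusted p of 0.0714 to 0.126, and without HFD 2, HFD 3 or HFD_HDCA 3 the second, at 0.0574 to 0.08. Of the nearest genes, Btc, a growth factor of the EGF family, lay 74185 bases away and stood at 1.0 (edgeR adjusted p = 0.201) and -0.85 (adjusted p = 0.141).

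Gm15408 (chr5:149006962-149012776) also rose on HFD. It read 1.60, 1.82 and 0.647 CPM on ND, 5.03, 4.24 and 5.29 on HFD and 2.34, 1.96 and 3.34 on HFD_HDCA, and no groups overlapped. Gm15408 reached 2 CPM on HFD and HFD_HDCA only, so some difference from ND was built into its choice. HFD against ND was 1.83 ± 0.34 (edgeR adjusted p = 0.0325), and HFD_HDCA against HFD, at -0.84 ± 0.32, missed the threshold (adjusted p = 0.164). The call was lost in 6 of 9 fits without 1 library, those without an ND liver, HFD 2, HFD 3 or HFD_HDCA 2, at edgeR adjusted p of 0.0535 to 0.114. It stood at an edgeR adjusted p of 0.0556 with only the 6 libraries compared.

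Gm16551 (chr9:74848437-74852872) fell on HFD. It lies 9049 bases from Onecut1, a transcription factor of liver development. It read 10.5, 10.1 and 18.7 CPM on ND, 2.60, 3.07 and 4.44 on HFD and 3.67, 6.63 and 7.80 on HFD_HDCA. The ND livers were above all others, and the high-fat groups overlapped. HFD against ND was -1.95 ± 0.33 (edgeR adjusted p = 0.0255), and HFD_HDCA against ND, at -1.04 ± 0.32, missed the threshold (adjusted p = 0.0824). The call was lost in 7 of 9 fits without 1 library, all but those without HFD_HDCA 1 or HFD_HDCA 3, at edgeR adjusted p of 0.052 to 0.112. Onecut1 read 3.08 to 5.77 CPM on ND and 2.02, 9.70 and 16.2 on HFD, at 1.1 (edgeR adjusted p = 0.553).

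Gm16157 (chr7:68266339-68276594, minus strand) overlaps Fam169b on the opposite strand, with 78 shared exon bases. It read 13.2, 12.1 and 14 CPM on ND, 15.4, 13.4 and 10.1 on HFD and 29.9, 17.8 and 23.9 on HFD_HDCA. Each HFD_HDCA liver was above all others. It rose by 0.98 ± 0.21 against HFD (edgeR adjusted p = 0.037) and by 0.96 ± 0.21 against ND (adjusted p = 0.0268). Fam169b stood at 23.2 to 30.6 CPM in all 9 livers, at 0.04 (edgeR adjusted p = 0.868) and 0.20 (adjusted p = 0.298). Whether the counting used strand was not stated, so reads in the shared bases cannot be told apart. The first call was lost without any ND liver, HFD 2, HFD 3, HFD_HDCA 1 or HFD_HDCA 3, at edgeR adjusted p of 0.0578 to 0.115, with only the 6 libraries compared at 0.114, and in limma on log2(FPKM + 0.1) at 0.055. The second was lost without any ND liver, HFD_HDCA 1 or HFD_HDCA 3, at 0.0575 to 0.109.

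Gm8883 (chr1:71888112-71891204) read 16.6, 14 and 14.2 CPM on ND, 22.2, 24.1 and 21.8 on HFD and 27.2, 21.8 and 24.6 on HFD_HDCA. The ND livers were below all others, and the high-fat groups overlapped. It rose in HFD_HDCA against ND by 0.81 ± 0.14 (edgeR adjusted p = 0.00979), a call that stood in 9 of 9 fits without 1 library. HFD against ND, at 0.61 ± 0.14, missed the threshold in edgeR (adjusted p = 0.0803) and passed it in DESeq2 and in limma on log2(FPKM + 0.1). Copies of at least 90% identity in 8 other genes cover 14.9% of the Gm8883 transcript.

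Gm15401 (chr6:72629288-72637717) runs antisense to Tcf7l1, a transcription factor of the Wnt pathway, with 179 shared exon bases. Gm37969, also on the opposite strand and not among the genes counted, shares 926 bases, 57.9% of the exons of Gm15401. Copies of at least 90% identity in 404 other genes cover 14.6% of the Gm15401 transcript. Whether the counting used strand was not stated, so its reads are uncertain in origin. Gm15401 read 0.694, 1.60 and 1.77 CPM on ND, 3.30, 4.24 and 1.98 on HFD and 3.34, 6.69 and 9.85 on HFD_HDCA. It rose in HFD_HDCA against ND by 2.36 ± 0.47 (edgeR adjusted p = 0.0189), with Tcf7l1 at -0.46 (adjusted p = 0.204), and HFD overlapped HFD_HDCA. Gm15401 reached 2 CPM on HFD and HFD_HDCA only, so some difference from ND was built into its choice. The call was lost without ND 1, ND 2 or HFD_HDCA 3, at edgeR adjusted p of 0.0622 to 0.0804.

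Gm4285 (chr14:75842918-75844964) lies 292 bases from Tpt1, an abundant housekeeping transcript. It read 3.58, 3.47 and 2.53 CPM on ND, 4.51, 3.95 and 2.46 on HFD and 6.51, 5.07 and 6.45 on HFD_HDCA, each HFD_HDCA liver above all others. It rose against ND by 0.999 ± 0.255 (edgeR adjusted p = 0.0453), and Tpt1 stood at 0.20 (adjusted p = 0.399). The call was lost without any ND liver, HFD_HDCA 1 or HFD_HDCA 3, at edgeR adjusted p of 0.106 to 0.142, and was 0.0776 with HFD 1 and HFD_HDCA 1 both left out.

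**Figure D5:**
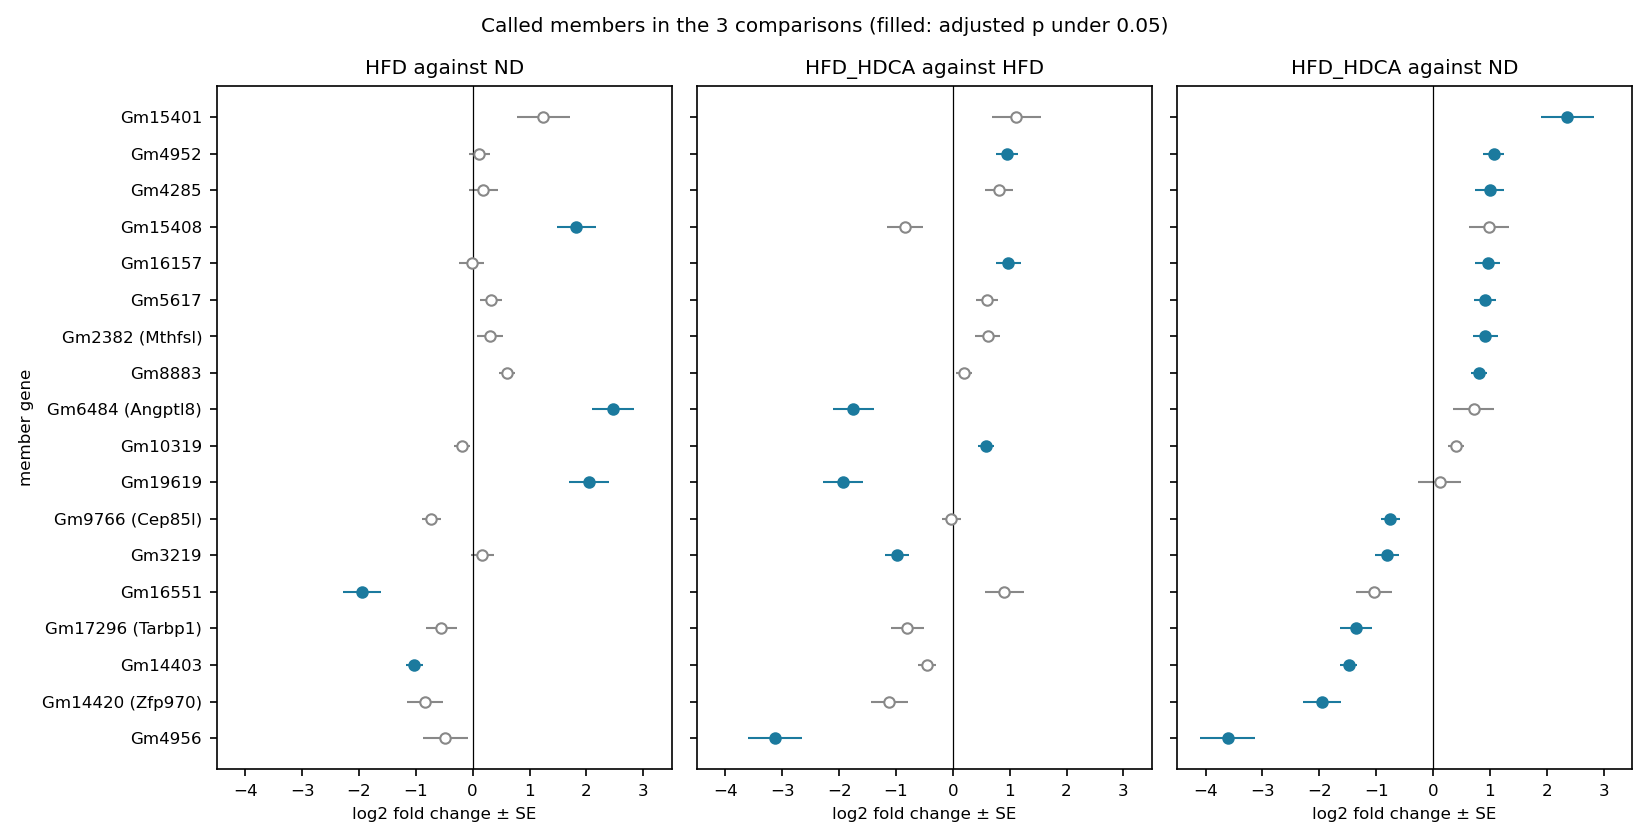
Log2 fold change with its SE for the 18 called members in the 3 comparisons, filled where the adjusted p was under 0.05 and ordered by HFD_HDCA against ND. Gm6484 and Gm19619 lie to the right of 0 in HFD against ND and to the left in HFD_HDCA against HFD, and Gm4956 lies farthest left where HFD_HDCA is compared.

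Several of the most abundant members were not called. Gm4788 read 292, 314 and 361 CPM on ND, 346, 348 and 318 on HFD and 343, 298 and 280 on HFD_HDCA. Its 3 log2 fold changes were 0.07 ± 0.14, -0.05 ± 0.14 and 0.02 ± 0.14, and the groups overlapped. Its transcript has close copies among other genes, so its reads are uncertain in origin.

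Gm4951, also known as Ifgga2, belongs to the interferon-inducible GTPases, which are induced in infected or inflamed cells. It read 159, 157 and 168 CPM on ND, 169, 170 and 161 on HFD and 166, 215 and 222 on HFD_HDCA. HFD_HDCA 1 lay among the HFD livers. HFD_HDCA against ND was 0.40 ± 0.12 (edgeR adjusted p = 0.0705). Gm12250, or Irgb10, of the same family, read 2.10 ± 0.50 CPM on ND, 2.45 ± 0.88 on HFD and 3.57 ± 0.85 on HFD_HDCA (SD, n = 3 each), at 0.85 ± 0.31 (edgeR adjusted p = 0.117). Of 14 named genes of the family tested, 0 were called between HFD and ND, 1 rose between HFD_HDCA and HFD (Iigp1, 0.65 ± 0.13, edgeR adjusted p = 0.0313), and 5 rose between HFD_HDCA and ND, with 0 lower in each comparison. The 5 were Irgm2, Igtp, Iigp1, Gbp2 and Gbp3, and their log2 fold changes ran from 0.72 to 1.1. Over all genes tested 1.67% rose between HFD_HDCA and HFD and 3.65% between HFD_HDCA and ND.

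Gm10768 (chr19:43838803-43840845) lies 585 bases past Abcc2, the canalicular pump for bilirubin and other conjugates. It read 177, 190 and 158 CPM on ND, 189, 127 and 133 on HFD and 86.8, 140 and 123 on HFD_HDCA, and HFD_HDCA 1 was the lowest. HFD_HDCA against ND was -0.51 ± 0.17 (edgeR adjusted p = 0.103), beside -0.46 (adjusted p = 0.0948) for Abcc2. Per 100 Abcc2 reads it had 25.9 to 31.1 reads in all 9 libraries.

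Gm608, now Usf3, a transcription factor gene, read 77.4 ± 7.58 CPM on ND, 71.1 ± 0.436 on HFD and 61.2 ± 20.9 on HFD_HDCA (SD, n = 3 each), with HFD_HDCA 1 at 37.8. HFD_HDCA against ND was -0.27 ± 0.20 (edgeR adjusted p = 0.427). Gm5480, now Smim22, a small membrane protein gene, had the widest uncalled value, 1.58 ± 0.47 for HFD_HDCA against HFD (edgeR adjusted p = 0.0913). Its HFD_HDCA livers read 5.57, 2.36 and 1.76 CPM and its HFD livers 1.21, 0.829 and 1.44, and HFD_HDCA 1 was far above the next. It reached 2 CPM in the HFD_HDCA group only, and DESeq2 gave an adjusted p of 0.0242.

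Gm11428, now Wfdc17, a secreted protein of macrophages, varied widely between libraries of 1 diet. It read 17.3, 21.8 and 15.3 CPM on ND, 19.9, 4.29 and 36.6 on HFD and 36.1, 12.1 and 20.5 on HFD_HDCA. Its lowest library, HFD 2, had the lowest macrophage marker sum (86.5 CPM) and HFD 3 the highest (592 CPM). The markers did not move together in HFD 3, where Marco read 234.5 CPM and Clec4f 80.2. In the other libraries Marco read 2.58 to 20.3 CPM, and Clec4f 118 to 198 except in HFD 2 (40.7). The part of macrophage number in the level of Gm11428 was not tested. Its log2 fold changes were 0.14, 0.30 and 0.44, each with an SE of 0.66. Gm2083 read 1.96 ± 0.445 CPM on ND, 2.14 ± 0.472 on HFD and 2.58 ± 0.566 on HFD_HDCA (SD, n = 3 each), and its per-length estimate was marked as failed in the authors' tables. Major urinary protein genes tested elsewhere in the tables numbered 16, of which 5 fell between HFD and ND, 4 rose between HFD_HDCA and HFD, and 2 rose and 2 fell between HFD_HDCA and ND. Over all genes tested 0.477% fell in the first comparison, 1.67% rose in the second, and 3.65% rose and 2.82% fell in the third. Reads that aligned to several places were not counted here either, and their part in these calls was not tested.

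The 54 uncalled members had log2 fold changes from -0.73 to 0.75 for HFD against ND, from -0.56 to 1.58 for HFD_HDCA against HFD and from -0.74 to 1.07 for HFD_HDCA against ND. For 32 of them all 3 values lay within 0.5 of 0. At an unadjusted p under 0.05 stood 13, 23 and 32 of the 72 members in the 3 comparisons, 11.5, 22 and 26.1% being the shares of all genes tested. Library groups did not overlap for 21, 21 and 29 members, or 29.2, 29.2 and 40.3%, beside 20.2, 23.4 and 34.3% of all genes. Over the 119 Gm-numbered genes tested, members included, these shares were 21.8, 21 and 31.1%. Of the 67 members with a GENCODE transcript, 30 were at least 90% identical to another gene over at least 100 bases, and for 13 such copies covered at least 50% of the transcript.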

How the data were processed

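RNA from 9 mouse livers was sequenced by the submitters with the TruSeq RNA kit, per the labels' protocols. The authors deposited, per library, whole-number read counts per gene from HTSeq, per the labels of the files, and a Cufflinks table of FPKM, per the file headers, which scales fragments by transcript length and depth. TopHat 1.3.2 and Cufflinks 2.0.2, with the mm10 build, are named in the submitters' processing notes. The HTSeq version, strand setting and annotation were not given in the sources used here, and the file names carry the word antisense.

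The 5 read classes outside genes were left out. Groups and replicate numbers came from the sample titles. Counts were fitted in R 4.3.3 with edgeR 4.0.16: filterByExpr with a minimum count of 10 (12587 genes), TMM factors, 1 model of all 9 libraries, robust quasi-likelihood tests, two-sided, Benjamini-Hochberg over all genes, called under 0.05. The SE is the log2 fold change divided by the square root of F. CPM values carry no TMM factors, so ratios of mean CPM can differ from the log2 fold changes, for small changes also in sign. An exact permutation test of 3 against 3 cannot go below 0.1. The procedure was tested on simulated data with the same spread for all genes and no outlying library. The livers differ from that setting, so the simulation cannot show how the procedure handles them.

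DESeq2 1.42.0, limma 3.58.1 on log2(FPKM + 0.1) of genes at a mean of at least 0.1, other scalings and filters, and fits without each library were alternatives. Close copies were sought with blastn 2.17.0 among GENCODE transcripts. Of the 72 members, 71 matched RefSeq GRCm38.p6 by symbol or synonym. Gene positions are those of the deposited tables (mm10). Members and lists were chosen with earlier results of these data known.

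Named are all called members, the 6 with the highest mean level, the 2 widest rises and falls per comparison at an unadjusted p under 0.05, members at the threshold and members of listed families. Gm11428 and Gm8883's uncalled value were singled out after their values were seen. Neighbours and relatives were named beside them. The relatives of 1 listed family are not reported here.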

Additional observations from a re-analysis of the deposited data

How the results depend on the processing

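The results followed were the calls of members and the widest changes at an unadjusted p under 0.05, 28 in all, each a member in 1 comparison. These 28 kept their direction under the alternatives run. Other values of named members, and neighbouring and related genes, were not followed through the alternatives. Between HFD and ND the number of members called was 5 in the model of all 9 libraries, 3 with only the 6 libraries compared, 3 with the replicate block, 8 with HFD 1 and HFD_HDCA 1 both left out, and 0 to 6 without 1 library. Between HFD_HDCA and HFD it was 7, with 2 in the 6 libraries, 4 by limma on log2(FPKM + 0.1) with no filter, and 1 to 8 without 1 library. Between HFD_HDCA and ND it was 13, with 8 by limma with no filter and 4 to 15 without 1 library. Without ND 1 the 3 counts were 0, 3 and 4. Beside the 0 of edgeR without ND 1, 10 members had an unadjusted p under 0.05 in that fit, and DESeq2 on all 9 libraries called 7.

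Over all genes, counts were 120, 428 and 815 in the same order. DESeq2 called 360, 1031 and 1328. Leaving HFD 1 and HFD_HDCA 1 out gave 576 and 977 in the first 2 comparisons, the 6 libraries alone gave 134 in the second, and limma with no filter gave 285 there. Without 1 library the ranges were 32 to 226, 127 to 672 and 196 to 1213. For HFD_HDCA against HFD, 210 genes were higher and 218 lower in the counts, and 131 and 340 in limma on log2(FPKM + 0.1), where 1 member was higher and 4 lower.

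The replicate numbers were not treated as pairs, and with the block 6 of the 25 calls of members had an adjusted p above the threshold, those of Gm6484, Gm3219 (2 each), Gm15408 and Gm10319. Same-numbered libraries had correlations of deviations from -0.14 to 0.14, 2 of 9 pairs were over 0.1 and 2 libraries correlated best with their own number. Calls of edgeR also made by limma on FPKM numbered 4 of 5, 5 of 7 and 10 of 13, and DESeq2 made all 25. At thresholds of 1 and 4 CPM there would be 93 and 51 members, and 66 by the mean over all libraries. At this depth members near 2 CPM rest on few reads, and with 3 livers per diet a p above the threshold does not show that levels were equal.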
